A study of Capra hircus with 6 samples.

Results

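The genes described here are the fibroblast growth factor (FGF) ligands, their receptors and co-receptors, and the adaptors and feedback inhibitors that act with them, measured in the skin of white, brown and black Pashmina goats. They were chosen by name: a row of the deposited gene table was taken where it held a single gene name of the FGF, FGFR, FGFBP, SPRY, SPRED or FRS families, or was DUSP6, KL or KLB. This gave 37 of 26938 rows. Skin came from 6 female goats of the Chanthangi Pashmina breed aged 26 months, 2 white, 2 brown and 2 black, sampled from the flank by punch biopsy. The goats were untreated apart from shearing, shaving and a local anaesthetic at the site, and the question was which transcripts differ with coat colour. The table holds 1 value per colour in FPKM (fragments scaled to exon length and to the number mapped), which combines the 2 goats of that colour. No difference below could therefore be set against the spread between goats, and no p-value or SD is given. Levels given in threes are for white, brown and black skin in that order.

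FGFs are secreted proteins that bind heparan sulfate on cell surfaces and activate receptor tyrosine kinases, the FGFRs. The signal passes through the adaptor FRS2 to RAS and the kinase ERK, and it is damped by proteins that ERK signalling itself induces, the Sproutys, the SPREDs and the phosphatase DUSP6. In hair-bearing skin FGF7 and FGF10 from the mesenchyme act on epithelial cells through an epithelial form of FGFR2, FGF5 brings the growth phase of the hair cycle to its end, and in mice FGF18 holds the follicle at rest. A biopsy holds epidermis, follicles, dermis, vessels and glands together, and in such a bulk sample fewer cells of a type and less RNA per cell cannot be told apart.

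The table gives no read counts behind its FPKM values, and most loci were listed lower in black: over loci at 1 FPKM or more in each colour of a pair, the white/black ratio had a median of 0.23 on the log2 scale, the brown/black ratio 0.20 and the brown/white ratio -0.031. The shift was larger at long loci, with medians up to 0.79 and 0.61 in the ratios of white and of brown to black. Ratios called relative to the median, or to loci of similar span, have the corresponding median subtracted. A further scale, the median of 13 widely used reference genes, went the other way for white/black, at -0.14, and for brown/white, at 0.22. For brown/black it was 0.14. The tissue carried the markers of skin, with the basal keratin KRT14 at 7238 to 12437 FPKM, the hair sheath keratin KRT25 at 2011 to 3390 FPKM and DCN, a proteoglycan of the dermis, at 806 to 1038 FPKM. Of 6 adipocyte markers found, 4 reached 1 FPKM in a colour, with sums of 53.3, 40.9 and 50.0 FPKM. Most of this came from CIDEA (48.7, 36.3 and 46.2 FPKM), and the hormone gene LEP was listed at 0 in every colour. No listed skeletal muscle gene exceeded 2.75 FPKM.

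Of the 37 genes, 18 reached 1 FPKM in at least 1 colour, and these are the ones compared below. They comprise 7 of the 21 FGF genes and 11 of the other 16. Passing this filter needed only 1 colour, so a gene high in 1 colour alone could enter. The same 18 are those for which the table marks enough aligned fragments for a comparison of colours in at least 1 pair; for FGF5, FGF13 and FGFR4 this held in the pairs with white but not between brown and black. The most abundant was FGFBP1, a secreted carrier that frees FGFs from heparan sulfate, whose level lay above that of 94.2% of detected loci in white and 97.9% in brown skin. FGFR1 and DUSP6 followed. The plot of FPKM by colour shows that 10 of the 18 were ordered white, brown, black from high to low, or 55.6%, against 35.2% of the 14273 loci with at least 1 FPKM in a colour and values above 0 in all. Black was the lowest colour for 13 of the 18, or 72.2%, and for 56.5% of those loci.

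**Figure D1:**
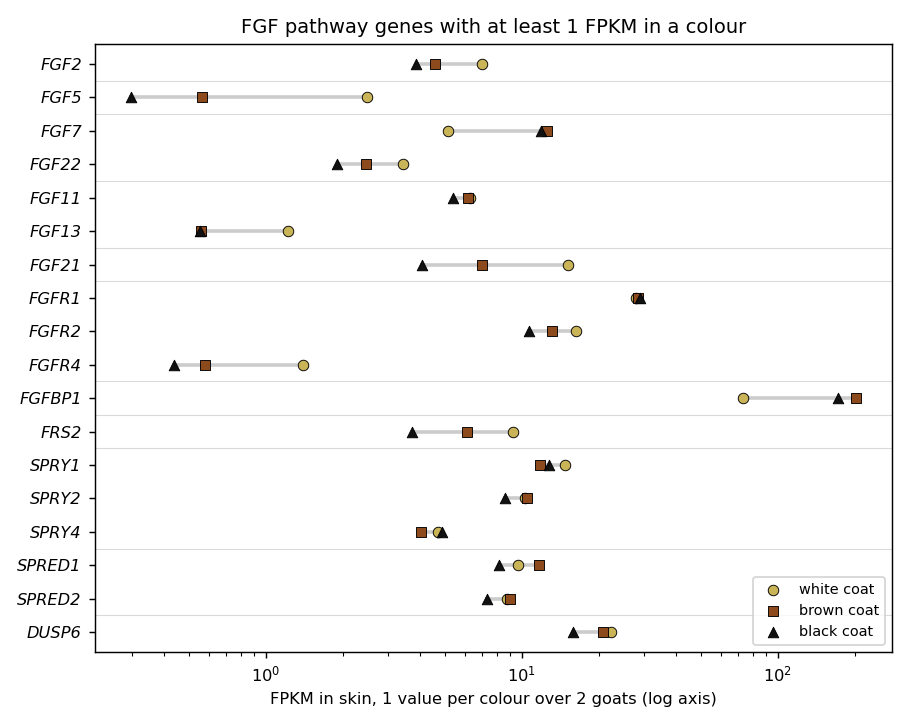
FPKM (log axis) of the 18 FGF pathway genes that reached 1 FPKM in a colour, ordered by role, with 1 point per colour that combines 2 goats and a grey line over their range. FGF5 spans the widest range, from 0.297 in black to 2.49 in white, and FGFBP1 is the most abundant gene in every colour.

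Between white and black skin, 5 of the 18 genes were at least 2-fold higher in white and 2 were at least 2-fold lower. FGF5, FGF21, FGFR4, FRS2 and FGF13 were higher, and FGF7 and FGFBP1 were lower. Over all 14134 loci compared by the same rule (at least 1 FPKM in the higher colour and above 0 in both), 10.7% were 2-fold higher and 2.29% were 2-fold lower in white. Of the FGF pathway genes the shares were 27.8% and 11.1%, on 18 genes. FGF5, FGFR4 and FGF13 reached 1 FPKM in white alone. They thus entered this comparison, and that of brown and white, through the colour where they are high. For this reason no excess over all loci was read from these shares. The median log2 ratio of the 18 genes was 0.37, beside 0.26 for all loci compared. Between brown and white skin, FGF7 and FGFBP1 were at least 2-fold higher in brown, and FGF5, FGF21, FGFR4 and FGF13 were at least 2-fold lower. Over the 14207 loci of that comparison, 2.41% were 2-fold higher and 4.86% lower in brown. Here the median was -0.26, beside -0.04 for all loci compared. Both comparisons contain the white goats, so a chance value in white enters both.
Between brown and black skin none of the 15 genes compared differed by 2-fold, while 3.52% of 13881 loci were 2-fold higher and 1.25% lower in brown. The log2 ratios of the 15 ran from -0.28 for SPRY4 to 0.78 for FGF21, and their median was 0.28, beside 0.21 for all loci. The 3 genes that dropped out, FGF5, FGF13 and FGFR4, were under 1 FPKM in both of these colours.

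**Figure D2:**
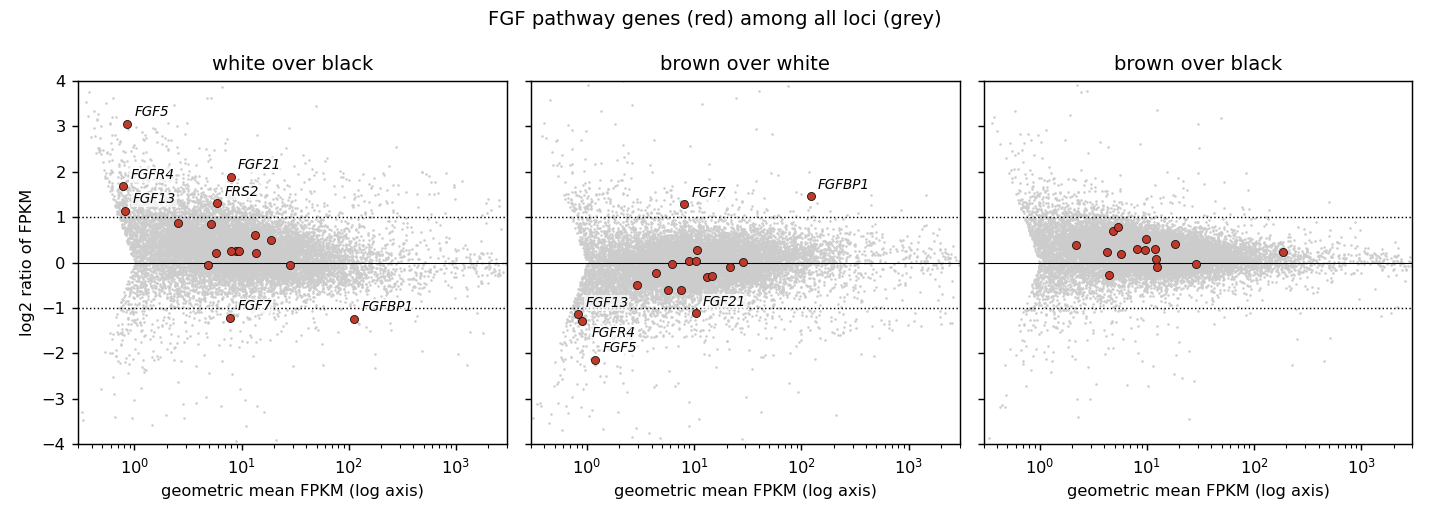
Log2 ratio of FPKM against the geometric mean FPKM of both colours (log axis), for white/black, brown/white and brown/black, with FGF pathway genes in red, all other compared loci in grey and dotted lines at 2-fold; loci beyond a log2 ratio of 4, or with mean levels past the ends of the horizontal axis, are not drawn. Genes beyond 2-fold are named: 7 in the first panel, 6 in the second and none in the third.

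The secreted ligands differed most in which of them led. Summed over the 17 secreted ligands in the table, the level was 35.2 FPKM in white skin, 29.4 in brown and 24.3 in black. FGF7 made up 14.6% of this sum in white, 42.8% in brown and 49.2% in black. FGF21 made up 43.3%, 23.9% and 16.9%. FGF21 was thus the highest ligand in white skin, and FGF7 the highest in brown and in black.

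**Figure D3:**
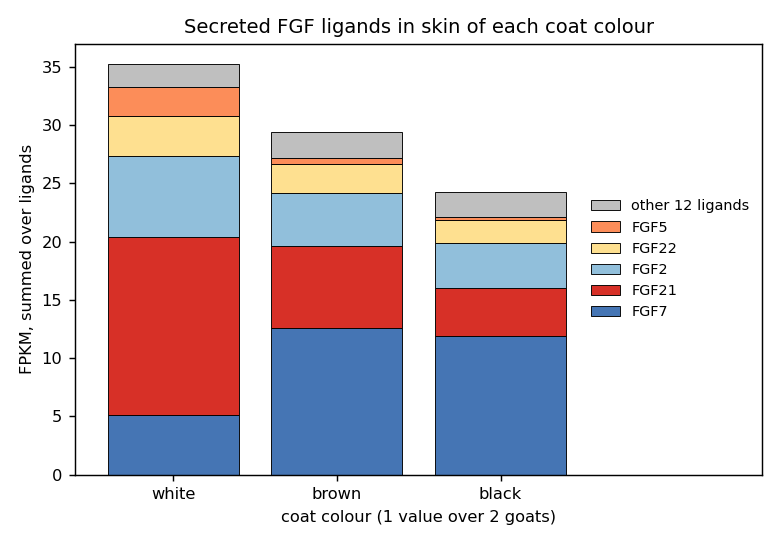
Summed FPKM of the 17 secreted FGF ligands by coat colour, stacked by ligand, with 1 value per colour over 2 goats. The FGF7 segment is 5.15 FPKM in white skin, 12.6 in brown and 11.9 in black, and the FGF21 segment is 15.2, 7.03 and 4.09.

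FGF7, also called keratinocyte growth factor, was measured at 5.15 FPKM in white skin, 12.6 in brown and 11.9 in black. White stood apart, and brown and black differed by a factor of 1.05. The log2 ratio was -1.21 for white/black and 1.29 for brown/white. Relative to loci of similar span these became -2.00 and 1.5, for a locus listed as 380 kb long (chromosome 10, 56878887 to 57258843, in the build of the deposited table). The rows of GALK2, a sugar kinase gene, and FAM227B have the same start and end, so the span is that of the 3 genes together and the values relative to span rest on it. Fragments of overlapping exons cannot be told apart in a library that does not keep strand. GALK2 itself was at 4.97 FPKM in white skin, 5.01 in brown and 2.94 in black, a white/black log2 ratio of 0.76, and FAM227B did not exceed 0.169 FPKM. The ratio of FGF7 to the level of FGFR2, its receptor, was 0.316 in white, 0.952 in brown and 1.11 in black. The FGFR2 level is that of the whole gene and does not separate its epithelial form.
Markers of the mesenchymal cells known to make FGF7 were counted beside it. Of 8 fibroblast markers 6 were higher in white than in black, beside 69.3% of all loci compared, and relative to the median 4 of the 8 were. Their sum was 2495 FPKM in white skin, 2098 in brown and 1599 in black, most of it from the collagen genes and DCN. The markers lower in white than in black were PDGFRA (18.8, 33.5 and 22.5 FPKM) and DPT (18.7, 26.8 and 22.7 FPKM), named after their values were seen. Against brown the same markers were divided, with 4 of the 8 higher in brown than in white. Of 6 compared dermal papilla markers 3 were at least 2-fold higher and 1, CRABP1, was 2-fold lower in white than in black. Over all loci compared these shares were 10.7% and 2.29%. Relative to the median none of the 6 stayed 2-fold higher, and CRABP1 stayed lower. Between brown and white 3 of the 6 were higher in brown, with a median log2 ratio of -0.013. Only RSPO3 was higher by 2-fold, beside 2.41% of all loci compared. The part of the fibroblast and dermal papilla markers in the FGF7 ratios was not tested.

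FGF10, the closest relative of FGF7, stayed low in every colour, with 0.335 FPKM in white skin, 0.672 in brown and 0.374 in black. FGF22, the remaining measured ligand of the FGF7 subfamily, which mouse skin makes in the epithelium, was at 3.45 FPKM in white skin, 2.46 in brown and 1.90 in black. White was its highest colour and the lowest of FGF7, while brown was above black for both. The ratio of FGF7 to FGF22 was 1.49 in white, 5.10 in brown and 6.29 in black. The log2 ratio of FGF22 for white/black was 0.86, short of 2-fold. It was 0.64 relative to the median, 0.82 relative to loci of similar span, 0.62 with 1 added to each FPKM and 1.00 relative to reference genes.

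FGF5, known for long-haired coats in several mammals when it is lost, had the largest ratio of all 18 genes as deposited. It was listed at 2.49 FPKM in white skin, 0.565 in brown and 0.297 in black. White was 8.36-fold above black and 4.4-fold above brown, and brown was 1.90-fold above black at levels where the table marks too few fragments for a comparison. The white/black log2 ratio was 3.06 as deposited, 2.84 relative to the median and 2.88 relative to loci of similar span. With 1 added to each FPKM it was 1.43, below the 1.67 of FGF21, and the brown/white ratio was -1.16. The locus lies on chromosome 6 from 92103281 to 92124341 in the deposited coordinates, spans 21.1 kb and overlaps no other row. The level is low: even in white it lay above only 38.6% of detected loci, and among loci with 1 to 5 FPKM in the higher colour 18.1% were 2-fold higher in white than in black. The other ligands of its subfamily, FGF4 and FGF6, were listed at 0 in every colour.

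FGF21, a hormone best known from liver that needs the co-receptor beta-klotho, was measured at 15.2 FPKM in white skin, 7.03 in brown and 4.09 in black. White was highest and black lowest, with log2 ratios of 1.90 (white/black), -1.12 (brown/white) and 0.78 (brown/black). Its locus on chromosome 18 (53813867 to 53815791) spans 1.93 kb, and the white/black log2 ratio was 1.86 relative to loci of that span. In the class of 5 to 20 FPKM, 8.28% of loci were 2-fold higher in white than in black. The co-receptors themselves were scarcely detected: KLB, beta-klotho, did not exceed 0.138 FPKM and KL, klotho, 0.252 FPKM. The remaining endocrine ligands were low too, with FGF23, the phosphate hormone of bone, at 0.198 FPKM in white skin, 0.463 in brown and 0.669 in black, and FGF19 at most at 0.127 FPKM.

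FGF2, a heparin-binding ligand made by many cell types of skin, was at 6.98 FPKM in white skin, 4.57 in brown and 3.88 in black. Its white/black log2 ratio was 0.85, which became 0.46 relative to loci of similar span. FGF1, its nearest relative, was flat and low at 0.230, 0.230 and 0.239 FPKM.

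Proteins of the FGF11 subfamily stay inside the cell and bind sodium channels rather than FGF receptors. FGF13, whose loss of expression in hair follicles is linked to excess hair growth in humans, was listed at 1.22 FPKM in white skin, 0.557 in brown and 0.552 in black. White was 2.21-fold above black and 2.19-fold above brown, and brown and black were nearly equal. With the median of all loci subtracted the white/black log2 ratio was 0.91, and relative to loci of similar span 0.73, both under 2-fold. FGF11 was at 6.26, 6.16 and 5.39 FPKM, and its white/black log2 ratio, 0.22 as deposited, was -0.01 relative to the median. FGF12 and FGF14 stayed under 1 FPKM.

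The receptors kept their rank in all colours, FGFR1 above FGFR2 above FGFR4. FGFR1, the main receptor of mesenchymal cells, was at 28.0 FPKM in white skin, 28.4 in brown and 29.0 in black. These values differed by at most 1.04-fold, although relative to the median white was below black by a log2 ratio of -0.28. FGFR2, the receptor of FGF7 in epithelium, was at 16.3, 13.2 and 10.7 FPKM. Its white/black log2 ratio was 0.60 as deposited and 0.11 relative to loci of similar span, as its locus spans 100.6 kb. The level of FGFR2 per level of FGFR1 was 0.582 in white, 0.464 in brown and 0.370 in black. FGFR4 was listed at 1.40 FPKM in white skin, 0.578 in brown and 0.438 in black. White was 3.20-fold above black and 2.42-fold above brown, at levels that lay above only 21.5% to 31.7% of detected loci. With 1 added to each FPKM its log2 ratios fell under 2-fold, to 0.74 and -0.61. FGFR3 and the decoy receptor FGFRL1 were not analysed here, nor were FGF3, FGFBP2 and FGFBP3.

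FGFBP1, the carrier named above, was measured at 73.2 FPKM in white skin, 203 in brown and 172 in black. White was again the colour that stood apart, as for FGF7, and the log2 ratio was -1.24 for white/black, 1.47 for brown/white and 0.23 for brown/black. At this level 2-fold differences were uncommon: of loci above 20 FPKM in the higher colour, 1.98% stood 2-fold or more below black in white, and 1.79% stood 2-fold or more above white in brown. Its locus on chromosome 6 (108170236 to 108173289) spans 3.05 kb, and relative to the median the white/black log2 ratio was -1.46.
FGFBP1 is made by keratinocytes. All 6 basal keratinocyte markers found were higher in white than in black, also relative to the median, with a median log2 ratio of 0.69, and 3 of the 6 were higher in brown than in white. Their sums were 17449 FPKM in white skin, 22106 in brown and 13421 in black, nearly all of it from KRT14 (8995, 12437 and 7238 FPKM) and KRT5 (8042, 9336 and 5986 FPKM). The 3 that were highest in white were TP63, COL17A1 and ITGB4. Inflammatory cell markers were lowest in white beside the low FGFBP1 and FGF7. All 5 neutrophil and macrophage genes found, of 8 listed, were below black in white, 2 of them by at least 2-fold. Of all loci compared, 69.3% were above black in white. Sums of the 5 genes were 50.5, 330 and 959 FPKM in white, brown and black, of which S100A8 made up 19.6, 290 and 912. The part of these cell type markers in the FGFBP1 and FGF7 ratios was not tested.

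FRS2, the adaptor that links activated FGF receptors to RAS, was at 9.30 FPKM in white skin, 6.11 in brown and 3.75 in black. White was highest and black lowest, 2.48-fold apart. The log2 ratio of 1.31 was 1.08 relative to the median and 0.82, under 2-fold, relative to loci of similar span, for a locus of 109.2 kb. The rows of the unnamed genes LOC102170672 and LOC102185342 have the same start and end, so this span too is not that of FRS2 alone. LOC102170672 was at 4.99, 5.96 and 5.77 FPKM, whose order among the colours differs from that of FRS2. LOC102185342 did not exceed 0.163 FPKM. FRS3, the second adaptor, was under 1 FPKM in every colour.

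Among the feedback inhibitors, whose genes respond to ERK signalling, none of the 6 that reached 1 FPKM differed by 2-fold in any comparison. Such differences were uncommon at the levels of 4 of them: of all loci with 5 to 20 FPKM in the higher colour, 9.90% were beyond 2-fold in white/black, 4.30% in brown/white and 2.62% in brown/black. DUSP6, a phosphatase that switches off ERK, was at 22.3 FPKM in white skin, 20.9 in brown and 15.8 in black, a white/black log2 ratio of 0.49 as deposited and 0.26 relative to the median. SPRY1 was at 14.8, 11.8 and 12.8 FPKM and SPRY2 at 10.3, 10.5 and 8.64 FPKM, the latter within an interval that also holds a row for an unnamed gene of at most 1.27 FPKM. The white/black log2 ratio of SPRY1 was 0.22 as deposited and -0.011 relative to the median. SPRY4 was at 4.72, 4.04 and 4.90 FPKM, so brown was lowest. SPRED1 was at 9.70, 11.7 and 8.15 FPKM and SPRED2 at 8.75, 9.0 and 7.34 FPKM, each highest in brown. Their white/black log2 ratios, 0.25 for both, were 0.02 and 0.03 relative to the median and -0.13 for both relative to loci of similar span. The summed level of the 6 inhibitors was 70.6 FPKM in white skin, 68.0 in brown and 57.6 in black. SPRY3 and SPRED3 stayed under 1 FPKM.

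**Figure D4:**
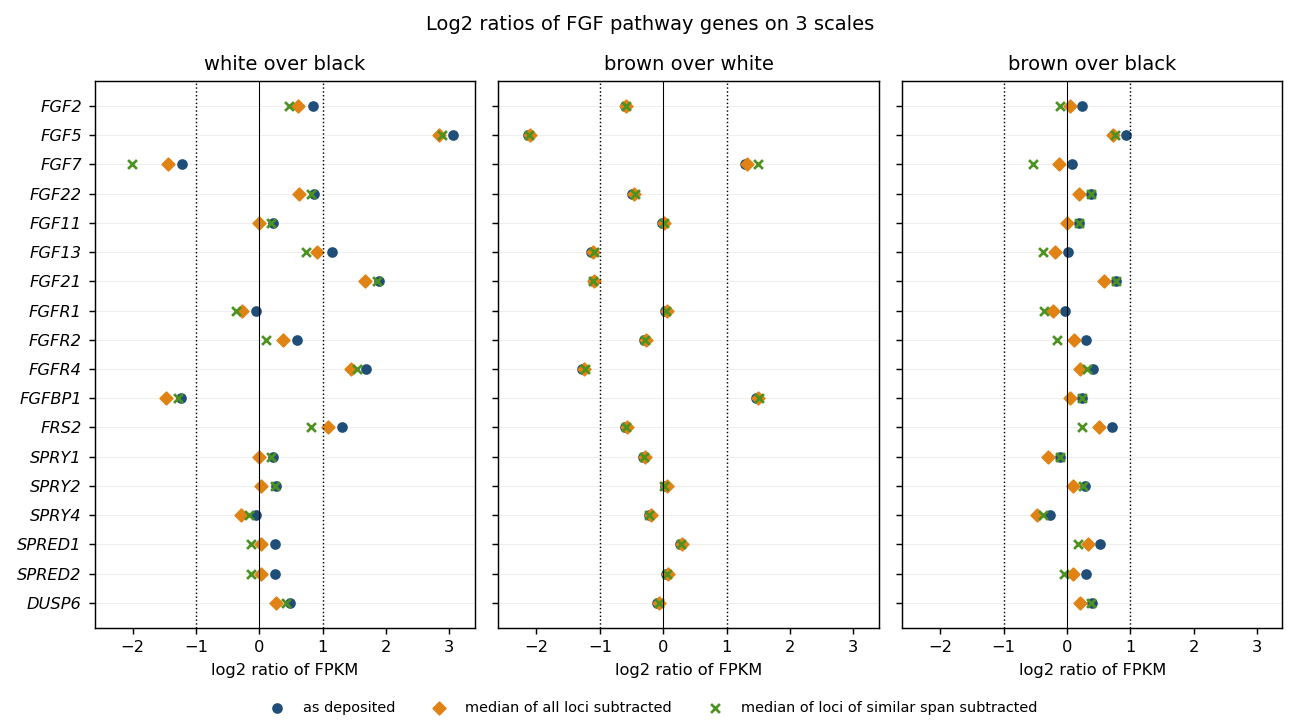
Log2 ratios of FPKM of the 18 genes for the 3 pairs of colours, as deposited (circles), relative to the median of all loci (diamonds) and relative to loci of similar span (crosses); dotted lines mark 2-fold. FGF5, FGF21, FGFR4, FGF7 and FGFBP1 lie beyond 2-fold on all 3 scales in white/black and in brown/white, whereas FRS2 and FGF13 in white/black do not.

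The other 19 genes were under 1 FPKM in every colour, with 0.818 FPKM the highest value among them (FGF12 in brown). FGF4, FGF6 and FGF20 were listed at 0 in all colours, and FGF8, FGF16, FGF17 and FGF19 at 0 in 1 or 2 colours. The remaining 12 were above 0 in every colour: FGF1, FGF9, FGF10, FGF12, FGF14, FGF18, FGF23, FRS3, KL, KLB, SPRY3 and SPRED3. FGF18 had 0.817 FPKM in white skin, 0.349 in brown and 0.366 in black. FGF14 had 0.604, 0.419 and 0.212 FPKM in the same order, within an interval it shares with the row of ITGBL1. No difference was read from these levels.

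The 37 genes lay on 17 chromosomes by their sequence in the deposited table, and the RefSeq gene table places 36 of them on the same one and SPRY3 on none. Only 4 pairs of neighbours were under 1 Mb apart: FGF6 and FGF23 at 41.9 kb, FGF19 and FGF4 at 58.9 kb, SPRY4 and FGF1 at 273 kb, and SPRY1 and FGF2 at 467 kb. Both genes of the first 2 pairs were under 1 FPKM, whereas SPRY4 at 4.04 to 4.90 FPKM stood beside FGF1 at 0.230 to 0.239 FPKM. FGF5 and FGFBP1, which went in opposite directions in white skin, are both on chromosome 6.

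Genes that carry the FGF signal onward were compared by lists written from general knowledge, with earlier results of these data known. Over all loci compared, 69.3% had white/black ratios above 0, beside the 10.7% that were 2-fold higher and the 2.29% that were 2-fold lower in white. Of 18 genes found of the chain from the receptor to RAS, RAF, MEK and ERK, only BRAF was 2-fold higher in white than in black (16.1, 10.6 and 7.60 FPKM in white, brown and black), and none was 2-fold lower. Their median log2 ratio was 0.40, and none of the 18 was beyond 2-fold in the other comparisons. Relative to the median the ratio of BRAF was 0.86, under 2-fold.
Of 11 compared ERK target and feedback genes, 2 were 2-fold higher and 1 was 2-fold lower in white than in black. The higher ones were the immediate early genes FOS (27.6, 74.1 and 12.8 FPKM) and EGR1 (56.6, 46.5 and 27.9 FPKM). The lower one was ETV4, a transcription factor induced by FGF signalling, at 9.35 FPKM in white skin, 15.0 in brown and 18.7 in black. ETV4 lay just past the threshold as deposited and at a log2 ratio of -1.23 relative to the median, whereas FOS and EGR1 then stood at 0.87 and 0.79, under 2-fold. Only FOS was beyond 2-fold in the other comparisons, higher in brown than in white and than in black. Over all loci compared, 2.41% were 2-fold higher in brown than in white and 3.52% than in black.
Heparan sulfate holds FGFs at the cell surface and is part of the complex they form with their receptors. Of 18 compared genes of its core proteins and enzymes, 17 had ratios above 0 and 4 were 2-fold higher in white than in black. These 4 were the sulfotransferases HS6ST2, HS2ST1 and HS6ST1 and the chain enzyme EXTL3. None was 2-fold lower. Relative to the median 16 of the 18 were above 0, and relative to loci of similar span 13 were. HS6ST2 reached 1 FPKM in white alone (1.27, 0.687 and 0.269 FPKM). HS2ST1 was at 4.19 FPKM in white skin, 4.96 in brown and 1.68 in black, so white and brown were both above black. In brown/black 3 genes of the list were 2-fold higher, beside 3.52% of all loci; 2 of them stayed so relative to the median and 1 relative to loci of similar span. As deposited they were HS2ST1, HS3ST1 (2.98, 4.70 and 1.86 FPKM) and SULF1 (0.577, 1.43 and 0.687 FPKM). In brown/white SULF1 alone was 2-fold higher, beside 2.41% of all loci compared. SULF1 reached 1 FPKM in brown alone, so it entered both comparisons through the colour where it is high. The median of the list was 0.60 on the log2 scale in the white/black ratio, -0.25 in brown/white and 0.28 in brown/black. In white/black, 2 of the 4 stayed beyond 2-fold relative to the median, and relative to loci of similar span only HS6ST2 stayed beyond 2-fold, at 1.45. The syndecan SDC1, the most abundant core protein, was at 246, 206 and 168 FPKM.

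Markers of the hair follicle epithelium were highest in white, as were 11 of the 18 FGF pathway genes. Of the loci with at least 1 FPKM in a colour and values above 0 in all, 47.9% were highest in white. FGF5, FGF13 and FGFR4, which are among the 11, reached 1 FPKM in white alone and so entered through that colour. No excess was therefore read from this count. All 8 genes found, of 13 listed for the hair matrix, shaft and inner root sheath, were higher in white than in black, beside 69.3% of all loci compared. LEF1 is in this list and also in that of the dermal papilla. Of the 8, 5 were at least 2-fold higher in white than in black, beside 10.7% of all loci compared. Relative to the median 2 of the 8 were. Their median log2 ratio was 1.05 as deposited. All 8 were lower in brown than in white, with a median of -0.78, whereas 46.4% of all loci compared were higher in brown. The summed level of the 8 genes was 8243 FPKM in white skin, 5021 in brown and 4386 in black. Their part in the FGF ratios was not tested. Of 7 melanocyte markers 4 were at least 2-fold lower and 1 was 2-fold higher in white than in black, and 5 were 2-fold higher in brown than in white. Over all loci compared these shares were 2.29%, 10.7% and 2.41%. The marker higher in white than in black was MITF, named after its values were seen. It was at 8.83, 7.11 and 3.90 FPKM and under 2-fold relative to the median (0.95). The sums over the 7 markers were 22.3, 64.9 and 58.0 FPKM.

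**Figure D5:**
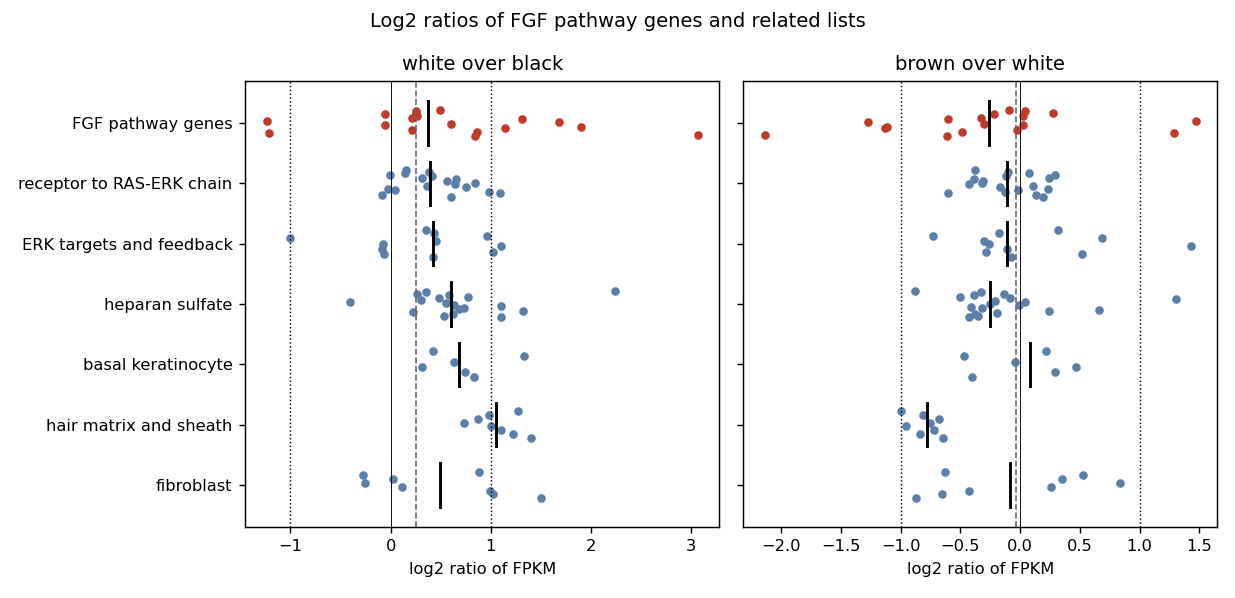
Log2 ratios of FPKM for white/black and brown/white, 1 point per gene with at least 1 FPKM in the higher colour, for the FGF pathway genes (red) and 6 related lists (blue); black bars are medians, the dashed line is the median of all loci compared and dotted lines mark 2-fold. The hair matrix and sheath genes sit apart from 0 in both panels, with medians of 1.05 and -0.78, while the FGF pathway genes spread to both sides.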

How the data were processed

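Per the study's methods, the authors filtered the paired-end reads by quality and length, aligned them with TopHat to a Bowtie index of a goat genome from NCBI (build not given in the sources used here; the submitters' processing notes list Bowtie2 version 2) and kept every position of reads that mapped more than once. Transcripts were assembled with Cufflinks. The deposited FPKM are CuffDiff output of the authors, 1 value per colour over its 2 goats; library normalization is not stated. The fold changes, test statistics, p-values and q-values of the authors' comparisons in the same table were not used, nor were values per goat. The design text speaks of grey goats and of 6 per colour; sample labels, which give 2 white, 2 brown and 2 black, were followed.

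Log2 ratios were computed from FPKM in Python 3.11.15 (pandas 2.3.3), without a pseudocount. A gene was called when its log2 ratio reached 1 in size, with at least 1 FPKM in the higher colour and above 0 in both; with 1 value per colour no test was made. Span is locus start to end, in 20 bins. Starts were converted to 1-based. Chromosomes are those that most gene names of a sequence have in the RefSeq gene table of assembly ARS1.2 (lowest share 97.2%). Percentiles are among loci above 0. The calling step was tested on simulated data. Members, gene lists and the reference genes were chosen with earlier results of these data known. All members are accounted for, with values given for those of at least 1 FPKM; of pathway lists up to 4 genes beyond 2-fold and up to 2 of highest FPKM may be named. Marker lists are given as counts and sums, with single genes named as examples. The table holds no read counts, so no interval is given. List counts relative to the median or to span were added after the data were seen. Sequences were not used here.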

Additional observations from a re-analysis of the deposited data

How the results depend on the processing

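No goat could be left out, since each FPKM combines both goats of a colour, and every value below is without error. Of 255 single-gene ratios recomputed under 5 other scales and pseudocounts, 247 kept their side of the 2-fold threshold, 7 called ones fell under it, 1 uncalled one passed it and none changed direction while called. The 7 were FGF13 and FGFR4 with 1 added to each FPKM (white/black 0.52 and 0.74, brown/white -0.51 and -0.61), and in white/black FGF13 relative to the median (0.91) and FGF13 and FRS2 relative to loci of similar span (0.73 and 0.82). The other was FGF22 in white/black relative to reference genes, a scale added after the data were seen (1.00). With no filter beyond FPKM above 0, 11, 10 and 1 genes lay beyond 2-fold in the white/black, the brown/white and then the brown/black ratio, against 7, 6 and 0. With at least 5 FPKM in the higher colour 4 and 3 remained in the first 2 comparisons. At 1.5-fold, 10, 8 and 2 genes lay beyond it in the white/black, brown/white and brown/black ratio, the last 2 being FGF21 and FRS2. The shares of all loci under these other filters and thresholds are not given here. No excess was therefore read from these counts. The median log2 ratio for white/black was 0.15 relative to the median of all loci, 0.22 relative to span, 0.51 relative to reference genes, 0.26 without the filter and 0.25 with the stricter one. For brown/white it was -0.48 relative to reference genes, -0.098 without the filter and -0.025 with the stricter one, and for brown/black 0.088 relative to the median, 0.17 relative to span and 0.14 relative to reference genes. The cause of these moves was not tested.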
